A study of Mus musculus with 8 samples.

Results

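The 9 genes described here write, erase or read methylation of cytosine in DNA. They were chosen by symbol from the 45706 genes of an RNA-seq count table, and each symbol stood on 1 line of it. They are the DNA methyltransferases Dnmt1, Dnmt3a and Dnmt3b, the dioxygenases Tet1, Tet2 and Tet3, and the readers Uhrf1, Uhrf2 and Mbd1. All 9 held enough counts to pass the filter on low values. The table holds 8 libraries of muscle stem cells, which lie along the fibres and rebuild them after injury, taken from wild-type C57BL/6 female mice (8 to 12 weeks old). Hindlimb cells were sorted as α7-integrin and CD34 positive and as negative for CD45, Sca1, CD31 and CD11b. The fresh group (n = 5) was processed after the sort, and the cultured group (n = 3) was kept for 48 h on a 12 kPa hydrogel. The growth medium held 40% low-glucose medium, 40% F10 medium and 20% fetal bovine serum. Fresh replicates 1 to 3 were sequenced in run 1, and fresh replicates 4 and 5 shared run 2 with all cultured libraries. The labels do not say that each library had its own animals or culture. The p-values therefore rest on the spread among these libraries, part of which may be technical.

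DNA methylation is laid down by de novo methyltransferases (DNMT3A and DNMT3B) and copied onto the new strand after replication by the maintenance enzyme DNMT1, which UHRF1 guides to hemimethylated CpG sites. TET enzymes oxidise 5-methylcytosine with oxygen and α-ketoglutarate as co-substrates and iron as a cofactor. The oxidised bases are lost by dilution at replication or by excision repair. Muscle stem cells rest in adult muscle and enter the cell cycle when they are placed in culture. The title of the study names metabolic control of the epigenetic landscape of these cells, and the comparison of cultured with fresh cells asks how transcripts of its enzymes differ after the cells leave the animal.

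The 2 genes that rose in culture, Uhrf1 and Dnmt1, each have a promoter window with a binding word of E2F, the transcription factor family that switches on S-phase genes. The E2F words searched were TTTCCCGC, TTTGGCGC, TTTCGCGC and TTTGCCGC on both strands, in the 250 bases before each annotated start (RefSeq, GRCm38.p6). Of the 9 genes, 8 matched a promoter in that table, and Uhrf1 and Dnmt1 were the 2 of these with such a word. The lines below show these sites with 10 bases on each side, in the strand on which the word reads forward and with the word in capitals, together with the sites of Hells and Cdca7, which encode chromatin remodelling partners of maintenance methylation. The other partner genes that rose, Pcna, Lig1 and 2810417H13Rik (Pclaf in RefSeq), had no such word in their windows. Among the MCM helicase genes that rose, Mcm5, Mcm6 and Mcm7 had at least 1 and Mcm2 and Mcm3 did not. Mcm4 also rose and matched no promoter in that table.
Uhrf1: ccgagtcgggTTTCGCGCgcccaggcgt
Dnmt1: accccggcttTTTCGCGCgcgcggaaac
Hells: accaccgggtTTTCCCGCgaaagagaag
Cdca7: ggccaccggcTTTCCCGCgccgggacgc
The Uhrf1 site lies at chr17:56304118-56304145 and its word begins 185 bases before a start annotated at 56304313. The Dnmt1 site lies at chr9:20952825-20952852 on the plus strand, opposite to the gene, with the word 219 bases before a start at 20952623 and inside an exon of a transcript that starts further upstream. Such a word was present in 1.86% of 32851 promoter windows of this length and in 4.10% of the 3150 windows with at least 26 CpG dinucleotides, the number in the Dnmt1 window. Counted by gene, 2.16% of 27025 genes had such a word in at least 1 window. The same windows were also searched for GGGCGG (GC box), CCAAT and TTTGAA (CHR), present in 32.7%, 33.8% and 16.0% of all windows. GGGCGG was found for each of the 8 genes with a promoter, whether they rose, fell or did not pass. CCAAT was found for Uhrf1, Dnmt1 and Tet3, and TTTGAA for Dnmt1 and Dnmt3b. A match to any of these words is a description, and binding was not measured.

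The Uhrf1 stretch around this word is shown because Uhrf1 had the largest change of the 9 genes. It is the plus strand at chr17:56304108-56304227 of GRCm38.p6, between annotated exons and with the E2F word in capitals.
Uhrf1 promoter stretch: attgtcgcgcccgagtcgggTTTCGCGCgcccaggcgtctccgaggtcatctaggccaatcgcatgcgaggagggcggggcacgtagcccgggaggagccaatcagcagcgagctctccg
The window of 250 bases before this start holds 30 CpG dinucleotides. Another annotated start of Uhrf1 has a window with 10, and the other windows of Dnmt1 hold 2 and 7, all without an E2F word. The windows of the genes that fell held 51 for Tet2, 17 for Tet3 and 15 for Tet1, and 15 to 40 for the 3 annotated starts of Dnmt3a. The median over all promoter windows was 6.

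Total counts were 13919440 to 20055185 in fresh and 16654631 to 20068154 in cultured libraries. Genes with a count numbered 32710 to 34689 in run-1 fresh, 20480 and 20898 in run-2 fresh and 15415 to 17852 in cultured libraries, with the fewest in cultured replicate 1. Transcripts of the mitochondrial genome took 5.98 to 11.8% of counts in run-1 fresh, 25.4 and 29.3% in run-2 fresh and 12.8 to 21.0% in cultured libraries. Of 8 marker genes of the stem cells 6 were lower in culture (median log2 fold change -2.02), and the summed level of the 8 was 4276 to 5565 CPM (counts scaled to the library size) in fresh and 1049 to 1169.6 CPM in cultured libraries. Pax7 was present in every library, at 669 to 1362 CPM in fresh and 51.8 to 92.0 CPM in cultured cells. Calcr, a receptor of resting stem cells, was at 66.6 to 313 CPM in fresh libraries and at 0, 3.24 and 1.12 CPM in cultured replicates 1 to 3.

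In culture Uhrf1 and Dnmt1 rose and the 3 TET genes and Dnmt3a fell. At a Benjamini-Hochberg adjusted p under 0.05 in edgeR's quasi-likelihood test with sequencing run as a term, 2 of the 9 genes were higher (Uhrf1 and Dnmt1), against 8.87% of all 19054 genes tested. Lower were 4 of the 9 (Tet1, Tet2, Tet3 and Dnmt3a), against 18.0% of all genes, and Dnmt3b, Uhrf2 and Mbd1 did not pass. In the same 6 genes the ranges of the fresh and cultured groups did not overlap, which was so in 39.9% of all genes. The number called was 3 without fresh replicate 4 and 3 with the run-2 libraries alone (Uhrf1, Dnmt1 and Tet2 in both cases). Levels are shares of the library, so fewer cells of a type and less RNA per cell cannot be told apart in these bulk samples. With run as a term, the fold changes compare cultured with run-2 fresh libraries. Values given below against run-1 fresh libraries alone cannot tell culture from run, since all cultured libraries were in run 2. The fresh means are over both runs, so the ratio of means can differ from the fold change.

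**Figure D1:**
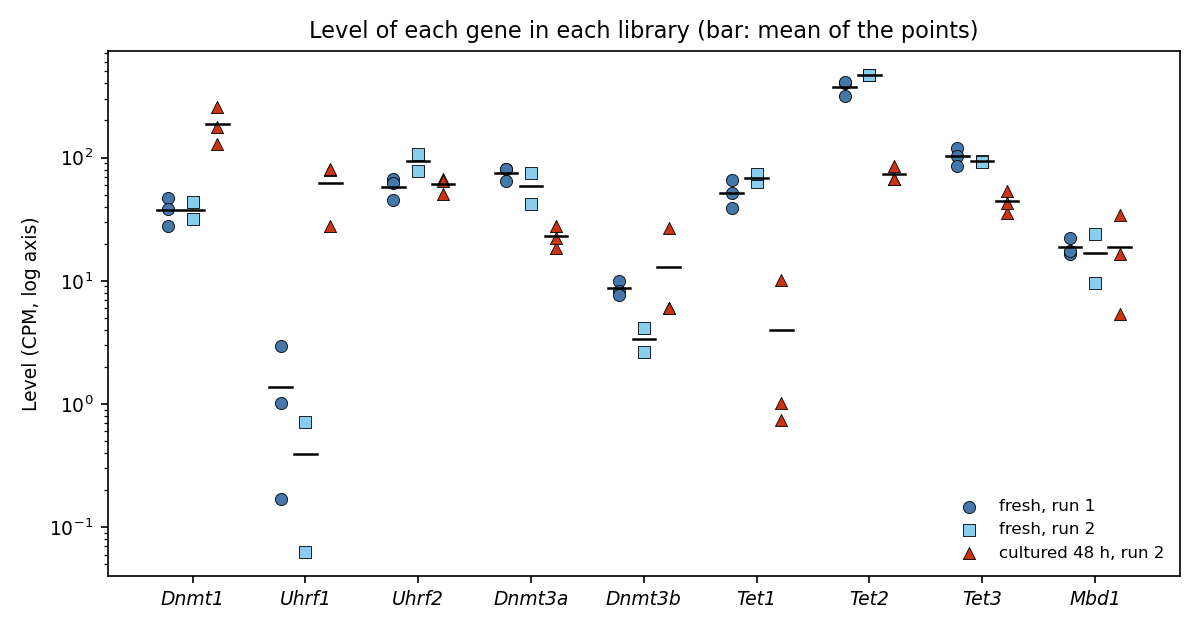
Level of each of the 9 genes in each library, in CPM on a log axis; points are libraries by group and run and bars are means of the points. Cultured points lie above all fresh points for Dnmt1 and Uhrf1 and below them for Dnmt3a, Tet1, Tet2 and Tet3, while they overlap for Uhrf2, Dnmt3b and Mbd1.

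Uhrf1 (ENSMUSG00000001228, chromosome 17, 56303321 to 56323486, plus strand), the reader of hemimethylated DNA, was close to undetected in fresh cells. Its levels were 0.171, 2.94, 1.02, 0.0632 and 0.717 CPM in fresh replicates 1 to 5, from expected counts of 3.48, 43.96, 16.83, 1 and 11. In cultured replicates 1 to 3 they were 27.9, 79.4 and 80.2 CPM. The lowest cultured library was thus above the highest fresh one, and cultured replicate 1 was below the other 2. The mean went from 0.982 ± 1.16 (SD, n = 5) to 62.5 ± 29.9 CPM (n = 3), with a log2 fold change of 7.30 ± 1.48 (± SE; edgeR adjusted p = 0.00771). The comparison within run 2 rests on 12 fresh counts, and the ratio of pooled run-2 counts was 163 with a 95% counting interval of 93.3 to 316, which covers counting error only. The log2 fold change was 5.59 against the run-1 fresh libraries, 6.49 without fresh replicate 4 and 9.82 without fresh replicate 5, where a single count of fresh replicate 4 remained in run 2. It passed the test in each of these cases.

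Dnmt1 (ENSMUSG00000004099, chromosome 9, 20907209 to 20959888, minus strand), the maintenance methyltransferase, was present in fresh cells and higher in culture. Its levels were 47.3, 38.2, 27.9, 31.9 and 43.3 CPM in fresh replicates 1 to 5 and 256, 179 and 129.6 CPM in cultured replicates 1 to 3. Cultured replicate 1, the lowest for Uhrf1, was the highest for Dnmt1. The mean rose from 37.7 ± 7.98 to 188 ± 63.9 CPM, a log2 fold change of 2.32 ± 0.39 (edgeR adjusted p = 0.00412). Between the fresh libraries of the 2 runs it differed by -0.01 ± 0.36 on the log2 scale (run 2 minus run 1; edgeR adjusted p = 0.998).

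Uhrf2, the UHRF1 paralogue that also binds 5-hydroxymethylcytosine, did not pass the test. Its levels were 67.3, 45.0, 62.4, 108 and 78.0 CPM in fresh and 67.3, 64.1 and 50.2 CPM in cultured replicates, and all cultured values lay within the fresh range. The log2 fold change was -0.62 ± 0.30 (edgeR adjusted p = 0.163), and 0.11 against the run-1 fresh libraries. The run-2 fresh libraries were higher than the run-1 ones by 0.67 ± 0.30 on the log2 scale, a difference that did not pass (edgeR adjusted p = 0.331).

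Dnmt3a (ENSMUSG00000020661, chromosome 12, 3806007 to 3914443, plus strand), the main de novo methyltransferase of adult tissues, fell. Its levels were 80.1, 80.5, 64.3, 74.4 and 42.2 CPM in fresh and 27.9, 18.6 and 22.2 CPM in cultured replicates. Fresh replicate 5 was the lowest of the fresh libraries and still above every cultured one. The mean fell from 68.3 ± 16.0 to 22.9 ± 4.71 CPM, with a log2 fold change of -1.35 ± 0.35 (edgeR adjusted p = 0.0200). The call was lost without fresh replicate 4 (-0.84; adjusted p = 0.204), with run 2 alone (-1.36; 0.107), without scaling factors (-0.94; 0.0650) and with no filter on low counts (-1.31; 0.0516). An antisense gene, Dnmt3aos, overlaps 133 bases of its exons, and Gm42567 overlaps 43 exon bases of Tet2. The sources used here do not say whether counting used strand, so reads from such overlaps cannot be told apart. Counts are per gene, so the long and short forms of Dnmt3a are summed.

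Dnmt3b, the de novo enzyme of early embryos, was low and did not pass. Its levels were 10.03, 8.28 and 7.74 CPM in run-1 fresh, 2.65 and 4.10 CPM in run-2 fresh and 6.01, 27.1 and 6.06 CPM in cultured replicates. Cultured replicate 2 stood above all other libraries, and the other 2 cultured libraries lay within the fresh range. The log2 fold change was 1.95 ± 0.90 (edgeR adjusted p = 0.142) and 0.85 without cultured replicate 2. Dnmt3b passed only narrowly and in 2 of the alternatives run, DESeq2 (1.88; adjusted p = 0.0475) and edgeR without cultured replicate 1 (2.36; 0.0486).

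Tet2 (ENSMUSG00000040943, chromosome 3, 133463679 to 133545139, minus strand), a TET dioxygenase abundant in many adult tissues, had the highest level per exon length of the 9 genes in fresh cells and fell in culture. Its levels were 405, 315, 411, 471 and 468 CPM in fresh and 66.8, 85.8 and 67.6 CPM in cultured replicates. The groups are far apart, and the cultured libraries span a narrow range. The mean fell from 414 ± 63.4 to 73.4 ± 10.8 CPM, a log2 fold change of -2.68 ± 0.23 (edgeR adjusted p = 0.000186). The adjusted p was the smallest of the 9 genes, and the log2 fold change stayed between -2.79 and -2.26 in all 17 alternatives run, each past the threshold.

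Tet1 (ENSMUSG00000047146, chromosome 10, 62804570 to 62908996, minus strand), the TET enzyme best known from embryonic stem and germ cells, had the largest fall. Its levels were 65.2, 52.0, 38.9, 63.5 and 74.1 CPM in fresh replicates. In cultured replicates 1 to 3 they were 0.738, 10.2 and 1.02 CPM, from expected counts of 14, 198 and 20. Cultured replicate 2 stood above the other 2 cultured libraries and below the lowest fresh one. The mean fell from 58.7 ± 13.6 to 3.98 ± 5.38 CPM, with a log2 fold change of -4.11 ± 0.99 (edgeR adjusted p = 0.0158). It was -6.26 (adjusted p = 0.000237) without cultured replicate 2. The call was lost with run 2 alone (-4.13; 0.0661) and without fresh replicate 4 (-4.15; 0.0557) or fresh replicate 5 (-3.96; 0.0656).

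Tet3 (ENSMUSG00000034832, chromosome 6, 83362373 to 83459084, minus strand), the TET enzyme known from the zygote and neurons, had the smallest of the 3 TET fold changes. Its levels were 119.7, 103, 84.7, 93.9 and 92.6 CPM in fresh and 35.3, 53.9 and 42.9 CPM in cultured replicates, and the groups did not overlap. The mean fell from 98.8 ± 13.4 to 44.0 ± 9.37 CPM, a log2 fold change of -1.08 ± 0.28 (edgeR adjusted p = 0.0208). The call was lost with no scaling factors (-0.65; adjusted p = 0.163), with run 2 alone (0.0754), with no filter (0.0801) and without fresh replicate 4 (0.115), fresh replicate 5 (0.0991) or cultured replicate 3 (0.0587). The direction was down in all 17 alternatives.

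Mbd1 (ENSMUSG00000024561), a methyl-CpG binding repressor, did not pass. Its levels were 22.2, 16.4, 17.5, 9.67 and 24.0 CPM in fresh and 5.43, 34.1 and 16.6 CPM in cultured replicates. The lowest and the highest of the 8 values were both cultured libraries. The log2 fold change was 0.15 ± 0.75 (edgeR adjusted p = 0.930).

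**Figure D2:**
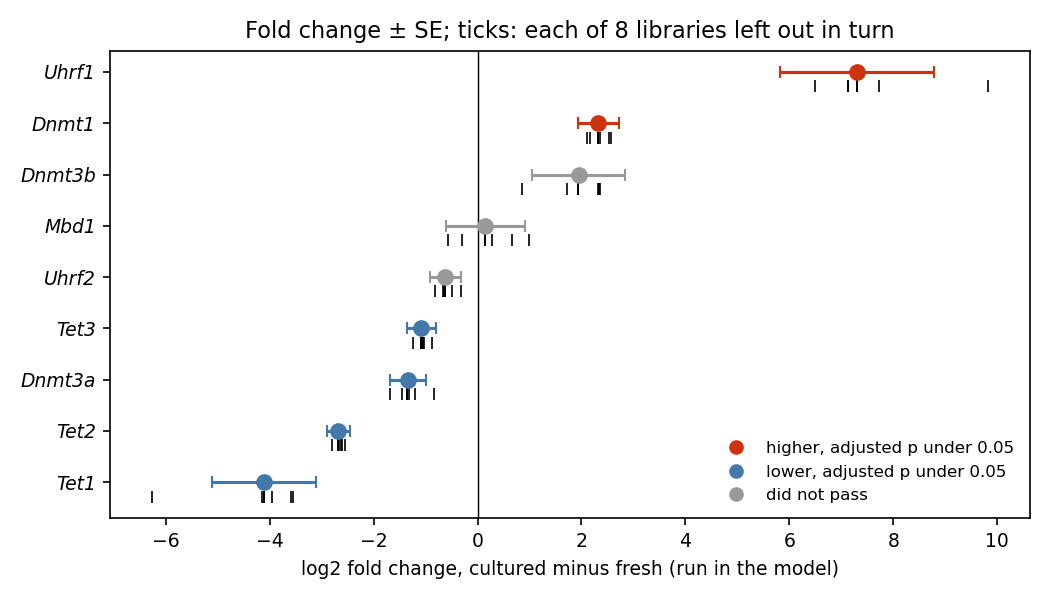
Log2 fold change of each gene, cultured minus fresh, with run in the model (point ± SE), and below each point the values with each of the 8 libraries left out in turn (ticks). Uhrf1 at 7.30 and Dnmt1 at 2.32 are higher and Tet3, Dnmt3a, Tet2 and Tet1 lower, with ticks on both sides of 0 for Mbd1 alone.

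Between fresh libraries of run 2 and run 1, 0 of the 9 genes were called and 0 had an unadjusted p under 0.05 (edgeR quasi-likelihood, run coefficient), and DESeq2 also called 0. Of all genes, 0.189% (36 of 19054) were called by edgeR in that comparison, so a count of 0 in 9 is near that share and does not show that levels were alike. DESeq2 called 921 of all genes. With 3 and 2 libraries, the ranges of the runs did not overlap for Dnmt3b (7.74 to 10.03 in run 1 and 2.65 to 4.10 CPM in run 2), Uhrf2 (45.0 to 67.3 and 78.0 to 108 CPM) or Tet2 (315 to 411 and 468 to 471 CPM). With so few libraries such splits can arise by chance. Their share over all genes was not counted, so they are not read as a run effect. The run coefficients of the 9 genes lay between -1.80 ± 1.21 for Uhrf1 and 0.67 ± 0.30 for Uhrf2 on the log2 scale.

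Most markers of pericytes and smooth muscle, Schwann cells and fibro-adipogenic cells, like the stem cell markers above, were lower in culture beside the genes that fell. Of all genes tested 18.0% were lower. Of 9 pericyte and smooth muscle markers 8 were lower, with a summed level of 820.3 to 3241 CPM in fresh and 35.3 to 51.6 CPM in cultured libraries, and Abcc9 and Kcnj8 had no count in culture. Of 6 Schwann markers 6 were lower (51.6 to 820.2 and 0.0527 to 3.47 CPM), with Sox10, S100b and Cdh19 at 0 in culture. Of 7 fibro-adipogenic markers 5 were lower (568 to 1033 and 9.94 to 20.0 CPM), with Ly6a and Cd248 at 0 in culture. Fresh replicate 1 had the lowest summed level of all 3 lists among the fresh libraries. In that library Tet1 was at 65.2, Tet2 at 405, Tet3 at 119.7 and Dnmt3a at 80.1 CPM, each within or above the range of the other 4 fresh libraries. Endothelial markers (2 lower of 6 tested), immune markers (2 of 6), tenocyte markers (2 of 4) and markers of mature muscle fibres (2 of 7) summed to at most 149 CPM in any library. The median log2 fold change of the immune markers was 0.60. Endothelial Pecam1 was at 35.1, 0.103 and 38.1 CPM in cultured and 0.195 to 4.50 CPM in fresh replicates. Acta1 of muscle fibres was at 61.0, 15.3 and 7.03 CPM and 1.24 to 6.27 CPM. Neither passed (edgeR adjusted p = 0.0677 and 0.0637). The part of other cell types in the falls was not tested.

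Per kilobase of annotated exon, which allows levels to be compared between genes, Tet2 led in all 5 fresh libraries with 24.6 ± 3.76 CPM per kb. Below it in the mean came Uhrf2 (8.40 ± 2.71), Tet3 (5.92 ± 0.801), Dnmt1 (5.11 ± 1.08), Dnmt3a (4.10 ± 0.961) and Tet1 (3.80 ± 0.882 CPM per kb). From Uhrf2 to Tet1, neighbours in this order differ by less than the larger SD of each pair. Mbd1 (2.68 ± 0.839) and Dnmt3b (1.28 ± 0.601) followed, and Uhrf1 was last in all 5 at 0.231 ± 0.273 CPM per kb. In culture Dnmt1 stood at 25.5 ± 8.67 and Uhrf1 at 14.7 ± 7.03 CPM per kb, and 1 of these 2 led in each library. Uhrf2 (7.05 ± 1.06), Tet2 (4.35 ± 0.638), Mbd1 (2.79 ± 2.16), Tet3 (2.64 ± 0.561), Dnmt3b (2.56 ± 2.38) and Dnmt3a (1.38 ± 0.283) came next, and Tet1 was last in all 3 at 0.258 ± 0.348 CPM per kb. From Tet2 to Dnmt3a, neighbours again differ by less than the larger SD. The lengths are those of all annotated exons merged, so genes with long alternative ends, such as the TET genes, can be placed too low where the cells use shorter transcripts.

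Within families the make-up of the transcripts differed between fresh and cultured cells. The 3 TET genes summed to 28.2 to 38.1 CPM per kb in fresh and 6.12 to 8.98 CPM per kb in cultured libraries. Tet2 made up 66.2 to 76.3% of that sum in fresh and 56.7 to 64.7% in cultured libraries, and Tet3 14.6 to 21.9% and 34.5 to 38.7%. The 3 methyltransferase genes summed to 9.16 to 13.2 CPM per kb in fresh and 20.1 to 37.6 CPM per kb in cultured libraries. Dnmt1 held 41.3 to 63.8% of this in fresh and 79.0 to 92.4% in cultured libraries, and Dnmt3a 27.5 to 48.0% and 3.64 to 6.65%. Uhrf1 held 0.118 to 11.6% of the sum of the UHRF pair in fresh and 45.6 to 76.3% in cultured libraries. The share of Dnmt3b overlapped between the groups, at 5.58 to 16.5% in fresh and 3.13 to 17.3% in cultured libraries. The other ranges given here did not overlap, and all are a description with no test.

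**Figure D3:**
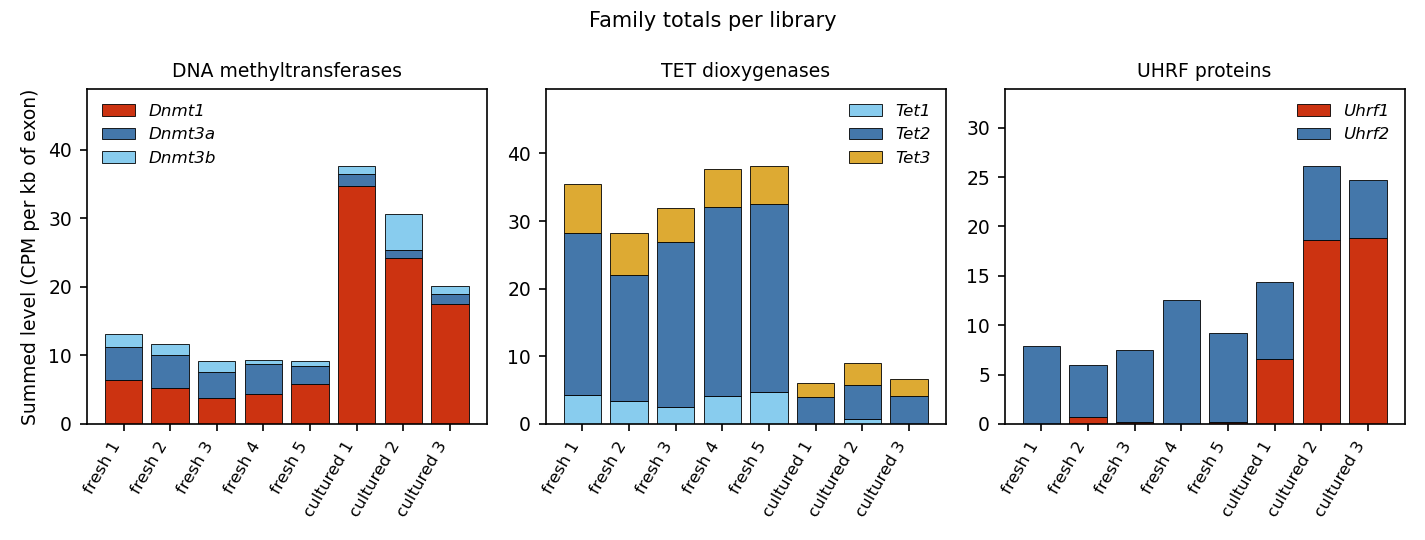
Summed level of each gene family in each library, in CPM per kb of exon, stacked by gene. The TET bars are lower in the 3 cultured libraries (6.12 to 8.98) than in the 5 fresh ones (28.2 to 38.1), while the methyltransferase bars are higher and mostly Dnmt1.

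The list of partner genes of maintenance methylation also holds Trdmt1 and Dnmt3l, relatives of the DNMT genes that are not partners of maintenance. Of its 8 tested genes 5 were higher and 0 lower, beside 8.87% and 18.0% of all genes. This and the lists below were chosen with earlier results of these data known, so their counts are a description. Usp7, Cdca7l and Trdmt1 did not pass. The median log2 fold change was 2.15, beside -0.21 for all genes tested. The count was 3 without fresh replicate 4. Hells, the remodeller LSH, rose from 3.13 ± 2.30 to 66.9 ± 11.2 CPM (3.98 ± 0.74), and Cdca7, its zinc finger partner, from 2.21 ± 1.70 to 27.2 ± 13.01 CPM (5.90 ± 0.84). The fold change of Cdca7 refers to the run-2 fresh libraries, where Cdca7 was at 0.442 and 0.456 CPM, below its mean over both runs. 2810417H13Rik, which encodes a PCNA-associated factor, rose from 1.63 ± 0.952 to 40.3 ± 6.60 CPM (5.22 ± 1.40), and Lig1, the replicative DNA ligase, from 13.8 ± 4.06 to 79.0 ± 45.2 CPM (2.79 ± 0.58). The fifth was Pcna, the replication clamp, at 1.51 ± 0.34, named after its value was seen. Usp7, a deubiquitinase that binds DNMT1 and UHRF1, was at 151 ± 17.8 and 173 ± 24.6 CPM and did not pass (edgeR adjusted p = 0.388). Dnmt3l, the cofactor of de novo methylation in germ cells, was below the filter with 0 counts in culture and 25 in fresh cells.

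The 6 genes of the MCM helicase, which opens DNA in S phase, were all higher, with a median log2 fold change of 3.78. Their summed level was 69.7 to 112 CPM in fresh libraries and 691, 659 and 461 CPM in cultured replicates 1 to 3. The largest were Mcm2 (5.75 ± 0.99), Mcm5 (4.63 ± 0.65), Mcm3 (4.30 ± 0.54) and Mcm6 (3.25 ± 0.53).

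The values of these partner and helicase genes rest in part on the run-2 fresh libraries. Against run-1 fresh libraries the log2 fold change was 3.07 for Cdca7, 4.38 for 2810417H13Rik, 4.86 for Hells, 2.74 for Pcna, 3.86 for Mcm2 and 3.35 for Mcm3, each past the threshold. In that comparison culture and run cannot be told apart. Without fresh replicate 4 it was 4.27 for 2810417H13Rik, 3.28 for Hells and 7.19 for Mcm2, and without fresh replicate 5 it was 12.49, 5.59 and 5.09 in turn, and 3.99 for Mcm6. The value of 12.49 is no bound, since 2810417H13Rik had no count in fresh replicate 4. Mcm2 was at 4.97 without cultured replicate 2. The call was lost without fresh replicate 4 for Lig1 (adjusted p = 0.0655) and Pcna (0.0689), without fresh replicate 5 for Pcna (0.0638), and with run 2 alone for 2810417H13Rik (0.0855).

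Of 9 other methyl-CpG binding genes 2 fell and 0 rose, beside 18.0% and 8.87% of all genes, with a median of -0.62. The count was 1 with run 2 alone and without fresh replicate 4 or 5. Zbtb4, a zinc finger protein that binds methylated CpG, fell from 184 ± 11.4 to 20.8 ± 12.8 CPM (-3.24 ± 0.53; edgeR adjusted p = 0.00355). Mbd5 and Mbd6, relatives of MBD1, were near 0 in cultured replicate 1. Mbd5 stood at 0.738, 47.7 and 32.2 CPM and Mbd6 at 0.580, 37.0 and 20.5 CPM in the cultured replicates, beside fresh means of 105 ± 20.1 and 35.3 ± 3.76 CPM, and neither passed the test (adjusted p = 0.149 and 0.542).

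Genes that supply or partner the TET enzymes went both ways, with a median of -0.61. Of 11 tested 2 were higher and 1 lower, beside 8.87% and 18.0% of all genes, and 8 were not called. The 3 calls became 0 without fresh replicate 4 or 5, and 1 with run 2 alone or without fresh replicate 2. Idh3a, a subunit of the mitochondrial isocitrate dehydrogenase that makes α-ketoglutarate, rose from 11.5 ± 3.40 to 45.9 ± 17.1 CPM (2.37 ± 0.52). The 1 that fell, named after its value was seen, was Cxxc4, the CXXC-domain partner of TET2, from 8.03 ± 4.21 to 0.257 ± 0.360 CPM (-4.87 ± 1.46; adjusted p = 0.0380), and -3.26 without fresh replicate 5, -5.54 without fresh replicate 4, -4.24 without cultured replicate 1 and -7.01 without cultured replicate 2. The calls of Idh3a and Cxxc4 were lost without fresh replicate 4 (adjusted p = 0.0755 and 0.0570) and without fresh replicate 5 (0.0610 and 0.237). Cxxc4 also lost its call with run 2 alone (0.154), without scaling factors (0.0534), and without fresh replicate 1 (0.0662), 2 (0.0662) or 3 (0.0693) or cultured replicate 3 (0.0718). Ogt, the O-GlcNAc transferase bound by TET proteins, was at 275 ± 62.6 and 180.4 ± 27.1 CPM and did not pass (adjusted p = 0.149).

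Of 13 genes tied to excision of oxidised methylcytosine 4 rose and 2 fell, beside 8.87% and 18.0% of all genes, with a median of -0.49. The 6 calls became 3 with run 2 alone and 3 without fresh replicate 5, with 1 higher and 2 lower in both cases. Lig3, a ligase of base excision repair, rose from 57.9 ± 20.9 to 135 ± 21.9 CPM (1.80 ± 0.33), Parp1, a sensor of DNA breaks, from 36.4 ± 4.33 to 111 ± 39.7 CPM (1.58 ± 0.38), and Apex1, the abasic site endonuclease, from 21.3 ± 9.75 to 59.0 ± 18.7 CPM (2.07 ± 0.65; adjusted p = 0.0433). Gadd45a, a stress-induced growth arrest gene, fell from 345 ± 108 to 56.3 ± 45.9 CPM (-3.002 ± 0.55), and stood at -3.85 without cultured replicate 1 and -2.25 against run-1 fresh libraries. The glycosylase gene Neil2 had no count in culture. With the cultured group set at a floor of 3 counts in total, Neil2 was at least 62.4-fold lower than in run-2 fresh cells. This bound covers counting error only. Its relative Neil3 was at 0.729 ± 0.479 and 6.42 ± 7.72 CPM (4.79 ± 1.46; edgeR adjusted p = 0.0405). Both were named after their values were seen. Neil3 lost its call in 10 of 17 alternatives, and its value was 3.09 when cultured replicate 3 was left out and 2.66 against run-1 fresh libraries. Apex1 lost it in 8, with 1.39 without fresh replicate 5 (adjusted p = 0.161) and a call at 3.57 without fresh replicate 4. Parp1 lost it without fresh replicate 4 (0.0755) or 5 (0.0823) and with run 2 alone (0.0516). Against run-1 fresh libraries Lig3 was lower, at 1.00, and Apex1 at 1.25, where both passed. Tdg, the glycosylase that removes the oxidised bases, was at 29.8 ± 8.00 and 46.5 ± 14.7 CPM and did not pass (adjusted p = 0.138).

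Of 9 tested genes of the S-adenosylmethionine cycle, which makes the methyl donor of the DNMT enzymes, 0 were called by edgeR, 2 had an unadjusted p under 0.05, and DESeq2 called 2. With any of the 3 cultured libraries left out edgeR called 1. Mat2a, the synthetase of that donor, was at 599.9 ± 157 and 561 ± 105 CPM (0.05 ± 0.29; edgeR adjusted p = 0.954). Ahcyl1, a relative of the hydrolase of its by-product, was at 135 ± 10.4 and 163 ± 49.1 CPM (adjusted p = 0.410). A list of 14 germline genes was taken as silenced by promoter methylation in somatic cells, and methylation was not measured here. Of these 14 genes, 12 were below the filter and 10 had no count in culture. Their summed level was 7.75 to 26.6 CPM in fresh and 2.85 to 15.1 CPM in cultured libraries, most of it from Tdrkh and Taf7l, and neither of these passed (adjusted p = 0.959 and 0.234).

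**Figure D4:**
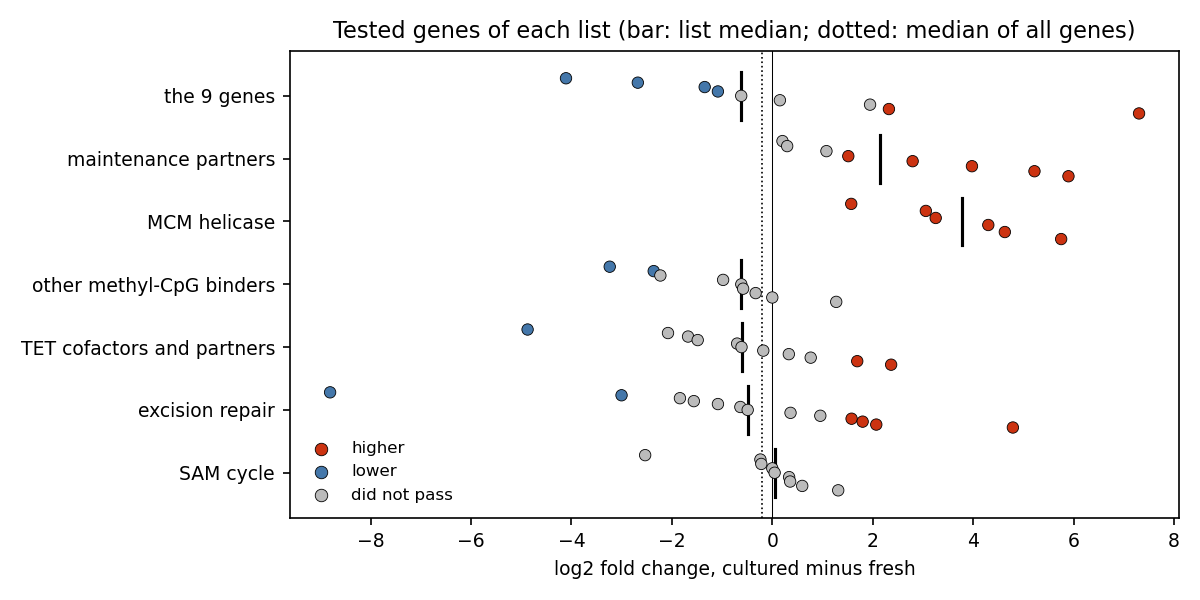
Log2 fold changes, cultured minus fresh, of the tested genes of each list; the bar is the list median and the dotted line the median of all genes tested (-0.21). The maintenance partners and the MCM helicase genes lie to the right of 0, the other lists on both sides.

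Over the 8 libraries, the genes whose log2 CPM was most like that of Uhrf1 among 8902 genes with a mean of at least 10 CPM were Slc48a1 (Pearson r = 0.996), a heme transporter, Myof (0.990), a membrane repair protein, and Lgals3 (0.984), a galectin. Slc48a1 went from 14.6 ± 6.22 to 105.7 ± 24.1 CPM. For Tet1 they were Ap3b2 (0.997), an adaptor subunit, Dnaja4 (0.997), a co-chaperone, and Capn5 (0.995), a calpain. Dnaja4 went from 79.1 ± 14.6 to 1.54 ± 2.59 CPM. The 8 points share the difference between the groups, so these values are a description with no test.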

How the data were processed

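The submitters' processing notes name RSEM, STAR and mouse build mm10. Tool versions and the annotation are not known from the sources used here. Per the labels, RNA was amplified as cDNA (NuGEN Ovation) before library construction, and no molecular identifier is mentioned. Expected counts, 1 column per library over 45798 lines, are what the authors deposited. Of the values above 0, 50.1% had decimals, and all values were rounded. The 92 spike-in lines were left out. Identifiers matched GENCODE M21 (GRCm38) for 98.8%, and gene coordinates and exon lengths are from it.

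Genes were kept by filterByExpr (19054) and scaled by TMM factors (0.790 to 1.18). The test was edgeR 4.0.16 quasi-likelihood in R 4.3.3 with run and culture as terms, 5 residual degrees of freedom and Benjamini-Hochberg adjustment over all genes. The culture coefficient therefore compares cultured with run-2 fresh libraries, and run-1 libraries add to the spread. Each SE is the fold change divided by the square root of the F statistic, an approximation. A prior count of 2 was used for log2 CPM. The steps were tested on simulated data with no difference between the runs and with changes only in genes of at least 10 CPM. Run differences and changes in low genes were thus not covered. Members and lists were chosen with earlier results of these data known. Named are all 9 members with every library's value and, from each list, at most 4 called genes by size of fold change (mean of 10 CPM or more), or its 2 most abundant genes if fewer than 2 passed. A few others are named for their role, and some that the rule names are not reported here. The 17 alternatives were no run term, run 2 alone, run-1 fresh libraries alone, the replicate block on these, RLE factors, no scaling factors, no mitochondrial genes, no filter, DESeq2 1.42.0, and each of the 8 libraries left out.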

Additional observations from a re-analysis of the deposited data

Results flagged for a closer look

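In fresh replicate 3 the level of Mat2a was 879.7 CPM, far from the other 4 fresh libraries. It was the 1 flag in 29 groups of fresh values examined for a library that stands apart, where chance flags about 1 in 20.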

How the results depend on the processing

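Uhrf1, Dnmt1 and Tet2 kept their direction and passed the threshold in all 17 alternatives. The 9 genes gave 6 calls, and 3 with run 2 alone and 3 to 7 with 1 library left out. Over all genes the 5122 calls became 2780 with run 2 alone, 2731 with the replicate block and 3337 to 6163 with 1 library left out. The 22 calls of the related lists became 14 with the replicate block and 13 to 27 with 1 library left out. Calls between the runs, 36 over all genes, were 81 with no filter, 921 with DESeq2 and 1 to 117 with 1 library left out, and 0 for the 9 genes throughout. Without scaling factors the split over all genes was 2452 higher and 2857 lower, against 1691 and 3431, and fold changes moved by a median of 0.41. Relative to that shift Dnmt3a was at -1.35 and Tet3 at -1.06. With the replicate block the split was 1347 and 1384, and with run 2 alone 1013 and 1767.

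Among genes that did not pass, the sign turned for Uhrf2 with run-1 as the only fresh libraries (0.11) and under the replicate block (0.13). It turned for Mbd1 with the replicate block (-0.25), without fresh replicate 4 (-0.30) and without cultured replicate 2 (-0.57), in a range of -0.57 to 0.98 with 1 library left out. For Mat2a it was -0.10 with no run term, -0.13 with run-1 as the only fresh libraries, -0.092 under the block, -0.013 with RLE factors and with DESeq2, and -0.062 to 0.20 with 1 library left out (lowest without cultured replicate 3). For Tdrkh it was -0.56 with the replicate block, -0.05 without fresh replicate 5 and -1.001 without cultured replicate 1, in a range of -1.001 to 0.75. The cause was not tested. The replicate block pairs fresh and cultured libraries of the same number, which the labels do not say were paired. Same-numbered deviations correlated at only 0.03, 0.01 and 0.01 (numbers 1 to 3), although each cultured library correlated best with the fresh library of its own number. Under the block Tet3, Idh3a, Apex1, Lig3, Cxxc4, Neil2 and Neil3 were not called. Few counts limit Uhrf1 in fresh and Tet1 in cultured cells.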
